A study of Mus musculus with 4 samples.

Results

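The genes described here are 50 genes that act in RNA polymerase I (Pol I) transcription and in the building of ribosomes. They were found by their symbols among the 55421 genes of the deposited count table, and all 50 had enough counts to be tested, among 20232 genes tested. They were divided by their known roles into 11 genes of Pol I transcription, 6 nucleolar regulators, 8 proteins of small nucleolar ribonucleoproteins (snoRNPs), 17 factors of the small ribosomal subunit and 8 factors of the large ribosomal subunit.

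Transcripts were counted by RNA-seq in primary cultures of spermatogonia, which included spermatogonial stem cells (SSCs), from CD1 mice. By the study's methods, SSC cultures were started from testes of pups at 6 days of age and treated for 48 h. In the Veh group (2 libraries) the cells were kept in complete SSC medium with the growth factors GDNF and FGF2. In the NRRA group (2 libraries) they received nutrient restriction plus retinoic acid (RA), a medium of 10% complete medium and 90% EBSS, a balanced salt solution without amino acids, with 100 nM RA. Cultures of both groups grew on irradiated mouse embryonic fibroblast (MEF) feeder cells, and no gene was altered in either group. The age and the time come from a general description of the cultures, since the labels give neither. No group with RA alone or nutrient restriction alone was analysed here, so the effects of the medium and of RA cannot be told apart. The labels do not say whether the libraries of a group came from separate cultures, whereas the study's reporting form calls its sequencing replicates independent. If they did not, the p-values measure only the spread between these libraries.

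Ribosome biogenesis starts in the nucleolus, where Pol I transcribes the repeated ribosomal DNA into a long precursor rRNA. Guided by small nucleolar RNAs (snoRNAs), snoRNPs methylate and pseudouridylate this precursor, and the small subunit processome and the large subunit assembly factors then fold and cut it while ribosomal proteins join. The process takes a large share of the biosynthetic effort of a growing cell, and Pol I activity is known to follow nutrient supply and the MYC transcription factors. The precursor rRNA itself carries no poly(A) tail and was not measured in these poly(A) libraries, so all values below concern the mRNAs of the factors.

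In NRRA 41 of the 50 genes were lower, 2 were higher and 7 passed the test in neither direction, where 56.4% of all genes tested passed in either direction. The test was edgeR's quasi-likelihood test with p-values adjusted over all genes tested at a threshold of 0.05, and over all genes tested 28.4% were called lower and 27.9% higher. The median log2 fold change (NRRA over Veh) was -0.36 over the 50 genes and 0.00029 over all genes tested. The 4 pairings of an NRRA library with a Veh library gave medians for the 50 genes between -0.379 and -0.344. The single changes were modest. Of the 50 genes, 13 were called and at least 1.5-fold lower, as were 12% of all genes tested. A call with at least a 2-fold decrease was made for 1 of them, Rrp9, and for 7.02% of all genes tested. Many of the genes tested had low counts. Of the 11326 genes whose mean log2 CPM reached 3, as did that of all 50 genes, 37% were called lower and 427 were called and at least 2-fold lower. Both NRRA libraries lay below both Veh libraries for 42 of the 50 genes and above them for 4, against 38.6% and 38.1% of all genes tested.

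Counts summed over the 50 genes, as CPM (counts scaled to the library size adjusted by TMM, the trimmed mean of M values), came to 9072 and 9076 for Veh and to 7013 and 7040 for NRRA. The sum in NRRA was 0.774 times that in Veh. As a share of the unscaled counts of a library, the 50 genes took 0.878% and 0.879% in Veh and 0.723% and 0.725% in NRRA. Total counts ranged from 28022265 to 31604769 in a library, and a single gene of the 50 had between 551 and 32725 counts in a library.

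**Figure D1:**
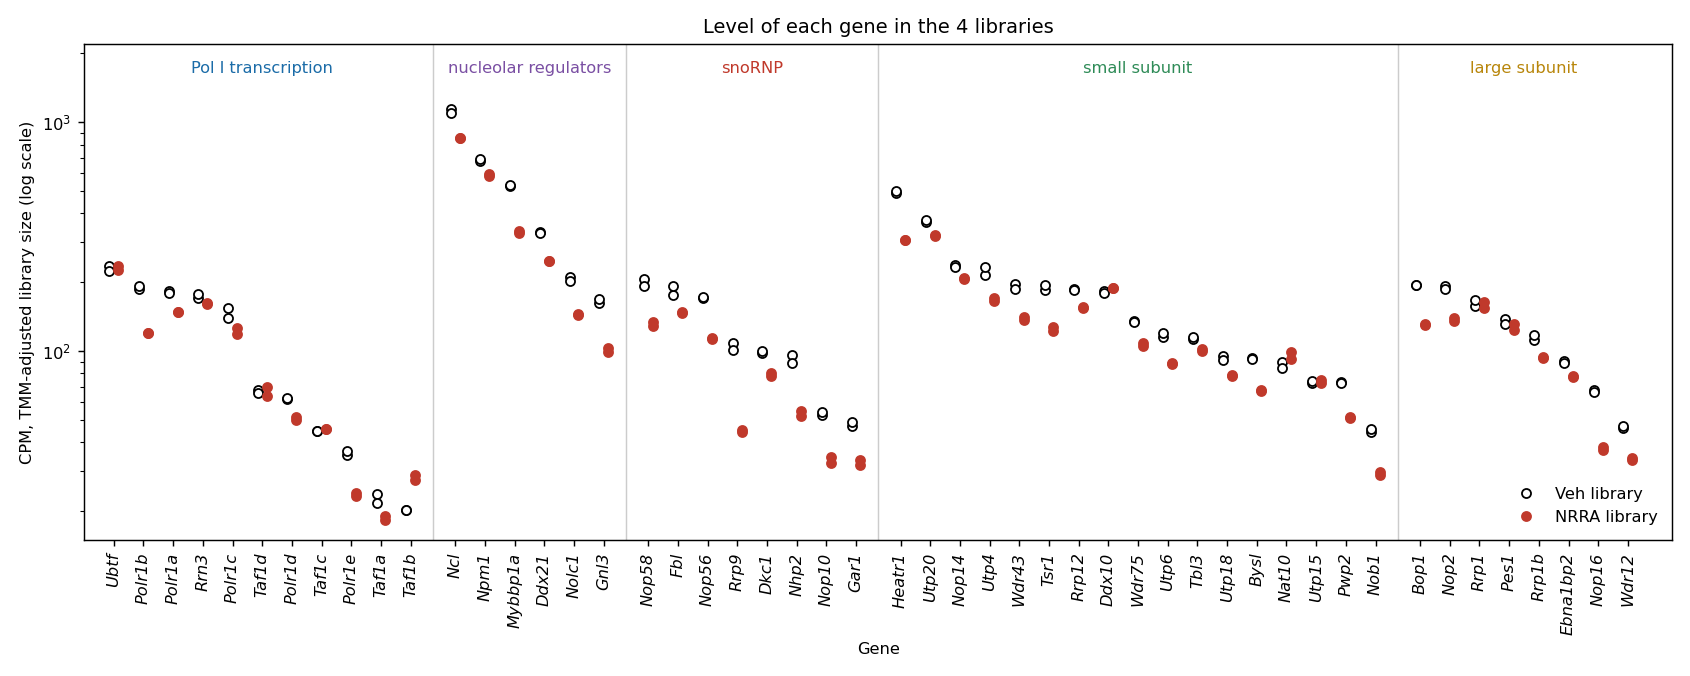
Level of each of the 50 genes in the 4 libraries, in CPM of the TMM-adjusted library size on a log axis, with open circles for the 2 Veh and filled circles for the 2 NRRA libraries, grouped by role and ordered by CPM, which is not corrected for the length of a gene. The 2 libraries of a group lie close together, and the NRRA circles lie below the Veh circles for 42 genes, with Taf1b and Nat10 among the exceptions.

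Both cell types of the cultures were present in every library. The 11 germ cell markers Ddx4, Dazl, Mael, Tex101, Dnd1, Piwil2, Tdrd1, Tdrd9, Zbtb16, Gfra1 and Sall4 were all detected. Their summed level was 2739 and 2807 CPM in Veh and 2510 and 2517 CPM in NRRA, with 6 lower, 4 higher and 1 not called. The 20 fibroblast markers, among them Fn1, Vim, Col1a1 and Timp1, had summed levels of 11360 and 11240 CPM in Veh and 8691 and 8499 CPM in NRRA. Of these markers 17 were lower and 2 higher, and none was at 0 in any library. DESeq2 called 14 fibroblast markers lower and 2 higher, without Col1a1, Col5a2 and Dcn, and 5 germ cell markers lower and 3 higher, without Dnd1 and Dazl. The ratio of the sums was 0.760 for the fibroblast markers and 0.907 for the germ cell markers, beside 0.774 for the 50 genes. These sums rest on few markers. Without Zbtb16 (mean 442.0 CPM in Veh and 81.7 CPM in NRRA) and Gfra1 (153.3 and 58.7 CPM), markers of undifferentiated spermatogonia, the ratio of the germ cell sums was 1.09, so its direction turned. Without Fn1 (6115 and 4357 CPM) that of the fibroblast sums was 0.817. The genes of ribosome biogenesis are used by every cell type, and the part of the fibroblasts in their change was not tested. In these bulk libraries fewer cells of a type and less RNA per cell cannot be told apart.

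The start regions of the genes were read from RefSeq (GRCm38.p6) as windows from 250 bases before to 50 after a start site. Entries matched 44 of the 50 genes, with 54 windows, and were missing for Bop1, Fbl, Npm1, Rrp12, Tbl3 and Utp6. Both strands were searched for CACGTG, the E-box to which MYC with MAX and other basic helix-loop-helix factors can bind, for CGGAAGT, a core sequence of ETS family factors, for the GC box GGGCGG, for ATTGG, which is CCAAT on the other strand, and for TATAAA. The windows below are those of the gene with the largest decrease (Rrp9), of the 2 genes with the lowest p-values (Mybbp1a and Heatr1), of a gene whose window held 3 kinds of motif (Tsr1) and of the clearest increase (Taf1b), with motif matches in capitals. In the Tsr1 window a GC box and a CGGAAGT match overlap.
Rrp9 (chr9:106477059-106477358, plus strand): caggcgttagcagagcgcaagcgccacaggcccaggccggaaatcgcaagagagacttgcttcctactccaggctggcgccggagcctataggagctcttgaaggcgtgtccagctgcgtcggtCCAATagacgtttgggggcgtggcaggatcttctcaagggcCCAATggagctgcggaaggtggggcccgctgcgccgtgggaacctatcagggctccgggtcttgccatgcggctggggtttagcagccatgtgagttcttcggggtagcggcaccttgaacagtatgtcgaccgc
Mybbp1a (chr11:72441077-72441376, plus strand): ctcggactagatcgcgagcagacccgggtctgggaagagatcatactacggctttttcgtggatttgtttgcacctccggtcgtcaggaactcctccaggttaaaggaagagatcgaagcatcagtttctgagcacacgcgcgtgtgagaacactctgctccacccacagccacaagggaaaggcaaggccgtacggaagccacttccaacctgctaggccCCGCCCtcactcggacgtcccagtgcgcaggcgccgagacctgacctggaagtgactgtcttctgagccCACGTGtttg
Heatr1 (chr13:12395125-12395424, plus strand): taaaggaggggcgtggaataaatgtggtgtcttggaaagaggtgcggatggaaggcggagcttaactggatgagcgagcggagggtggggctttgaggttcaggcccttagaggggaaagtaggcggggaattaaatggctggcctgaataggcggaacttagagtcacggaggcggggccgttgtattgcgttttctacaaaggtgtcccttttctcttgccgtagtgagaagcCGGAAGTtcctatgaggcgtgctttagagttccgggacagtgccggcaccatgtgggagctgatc
Tsr1 (chr11:74897830-74898129, plus strand): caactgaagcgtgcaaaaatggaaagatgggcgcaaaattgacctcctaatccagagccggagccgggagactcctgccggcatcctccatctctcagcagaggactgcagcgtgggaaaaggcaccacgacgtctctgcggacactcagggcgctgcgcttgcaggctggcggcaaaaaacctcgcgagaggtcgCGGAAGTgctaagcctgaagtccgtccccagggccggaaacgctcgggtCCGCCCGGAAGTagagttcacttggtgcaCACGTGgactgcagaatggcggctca
Taf1b (chr12:24498331-24498630, plus strand): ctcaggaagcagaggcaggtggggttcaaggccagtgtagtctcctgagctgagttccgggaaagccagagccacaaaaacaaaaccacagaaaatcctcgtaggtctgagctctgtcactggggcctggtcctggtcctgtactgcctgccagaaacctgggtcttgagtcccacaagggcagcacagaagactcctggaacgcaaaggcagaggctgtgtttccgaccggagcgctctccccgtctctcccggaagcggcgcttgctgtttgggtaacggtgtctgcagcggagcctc

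CGGAAGT stood in 31.5% of the 54 windows, in 6.42% of all 32851 windows and in 10.9% of the 16484 windows of tested genes. CACGTG stood in 16.7% of them, in 7.15% of all windows and in 9.49% of those of tested genes. GGGCGG was common everywhere, at 66.7%, 35.7% and 57.7%. The shares for ATTGG were 31.5%, 37.4% and 37.5%, and those for TATAAA 3.7%, 13.6% and 7.83%. The 9 genes with CACGTG were Mybbp1a, Nop2, Pes1, Rrn3, Tsr1, Utp18, Utp20, Utp4 and Wdr43. Their median log2 fold change was -0.41, and it was -0.39 in the other 35 genes with a window. For the 16 genes with CGGAAGT it was -0.41, and -0.36 for the other 28. The order was the same for GGGCGG, at -0.41 with and -0.31 without a match, and the opposite for ATTGG, at -0.29 with and -0.47 without. TATAAA stood in the windows of 2 genes, with a median of -0.21 beside -0.41 for the other 42. A match is only a run of letters in the window and was not tested as a site.

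The genes of Pol I transcription had the smallest median change of the 5 roles, at -0.26 log2. All 5 genes of core enzyme subunits were lower. Polr1b (chr2:129100995-129126594, 17 exonic blocks in the GENCODE M21 annotation), which encodes the second largest, catalytic subunit, measured 186.7 and 191.9 CPM in Veh and 120.4 and 120.2 CPM in NRRA. Its log2 fold change was -0.65 ± 0.033 (SE, n = 2 libraries a group, edgeR adjusted p = 2.62e-15), a level 36.5% lower. Polr1e, which encodes the subunit PAF53, measured 35.17 and 36.6 CPM in Veh and 23.34 and 24.02 CPM in NRRA (-0.60 ± 0.065). The groups were far apart for both genes compared with the distance between libraries of a group.

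Polr1a, which encodes the largest, catalytic subunit, was less changed, with 183.4 and 180.1 CPM in Veh and 148.2 CPM in both NRRA libraries (-0.29 ± 0.031). Its 95% interval, taken from the SE of the fit, ran from -0.356 to -0.232 and did not overlap that of Polr1b, from -0.718 to -0.590. Such intervals are set side by side below, and no test of a difference between genes was run. The 2 subunits that Pol I shares with Pol III were lower as well, Polr1c by -0.26 ± 0.041 and Polr1d by -0.28 ± 0.049 on the log2 scale. Without these 2 shared genes the median of the role was -0.115, and 5 of the other 9 genes were lower.

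The factors that bring Pol I to its promoter did not move together. Rrn3, the initiation factor TIF-IA that links Pol I to growth signals, measured 171.0 and 178.2 CPM in Veh and 162.1 and 160.3 CPM in NRRA. The log2 fold change was -0.115 ± 0.032 (edgeR adjusted p = 0.00352), a small step beside that of the enzyme subunits. The call was lost with scaling by library size alone (-0.025, edgeR adjusted p = 0.531) and without Veh replicate 2 (-0.085, edgeR adjusted p = 0.0503). Ubtf, which encodes the ribosomal DNA binding factor UBF, measured 235.2 and 224.2 CPM in Veh and 226.0 and 236.7 CPM in NRRA, and the groups overlapped. The 95% interval of its log2 fold change ran from -0.051 to 0.072. Among the 4 genes of the promoter selectivity factor SL1, Taf1a was lower, Taf1b was higher and Taf1c and Taf1d passed in neither direction. Taf1b (chr12:24498359-24558539) measured 20.32 and 20.23 CPM in Veh and 27.3 and 28.73 CPM in NRRA, with a log2 fold change of 0.47 ± 0.072 (edgeR adjusted p = 3.89e-06). Taf1a measured 23.67 and 21.68 CPM in Veh and 18.36 and 19.07 CPM in NRRA (-0.28 ± 0.078), and its call was lost without Veh replicate 1 (adjusted p = 0.0523). Taf1c measured 44.76 and 44.77 CPM in Veh and 45.87 and 45.71 CPM in NRRA, and Taf1d 67.62 and 65.47 CPM in Veh and 63.56 and 69.76 CPM in NRRA, where the groups overlapped. The summed level of the 4 SL1 genes was 156.4 and 152.1 CPM in Veh and 155.1 and 163.3 CPM in NRRA, so the sums of the groups overlapped.

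**Figure D2:**
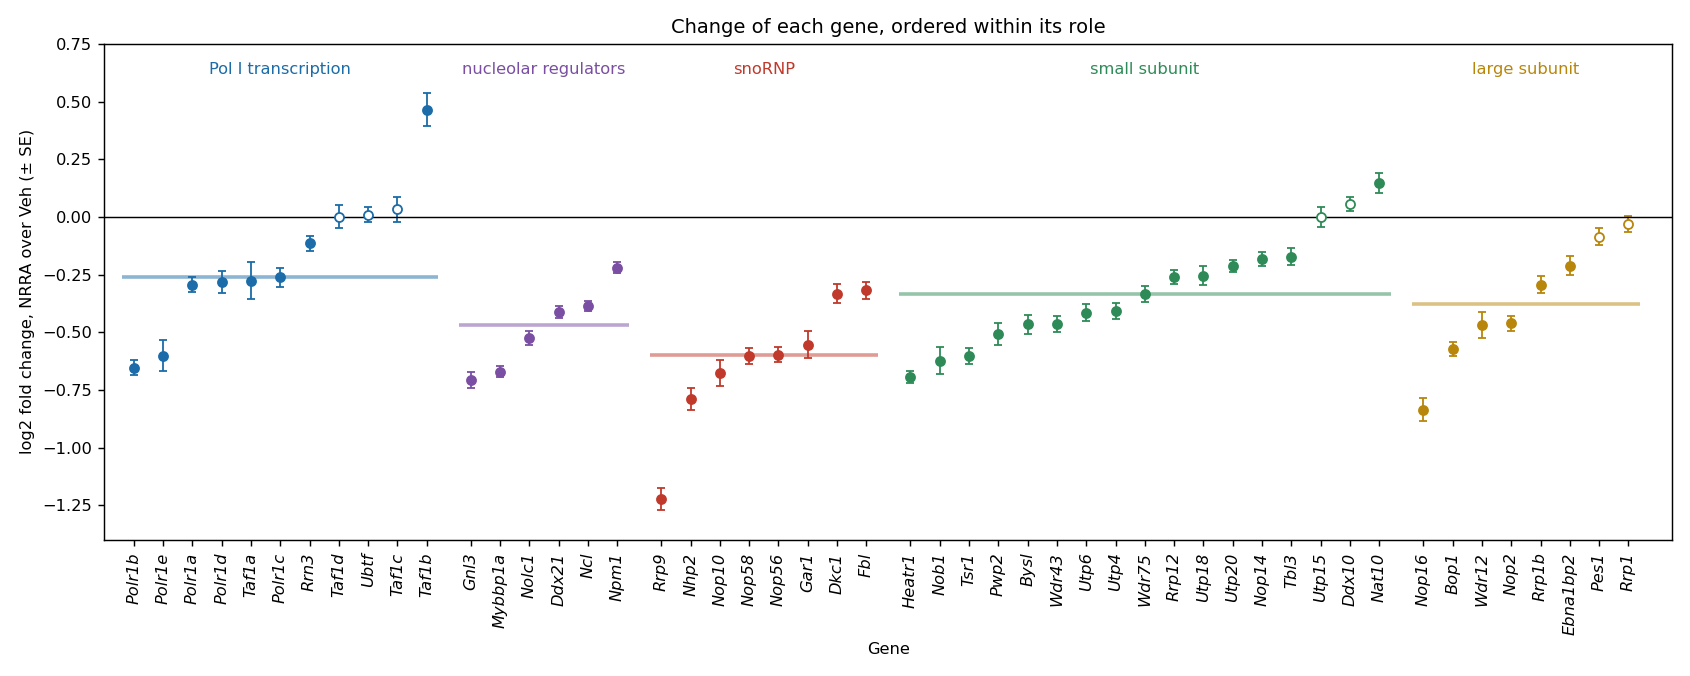
Log2 fold change (NRRA over Veh) of each of the 50 genes with its SE, ordered within each role, with filled circles for genes past the adjusted p threshold of 0.05, open circles for the others and a horizontal bar for the median of the role. The role medians are -0.26 for Pol I transcription, -0.47 for nucleolar regulators, -0.60 for snoRNP, -0.33 for the small and -0.38 for the large subunit, with Rrp9 lowest at -1.22 and Taf1b highest at 0.47.

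All 6 nucleolar regulators were lower, with a median log2 fold change of -0.47. Gnl3, which encodes the GTP-binding protein nucleostemin, measured 161.9 and 168.5 CPM in Veh and 103.6 and 98.82 CPM in NRRA (-0.71 ± 0.036, edgeR adjusted p = 4.63e-15). Mybbp1a (chr11:72441355-72451768), which encodes a nucleolar protein that binds Pol I and precursor rRNA, measured 524.7 and 533.3 CPM in Veh and 329.9 and 335.0 CPM in NRRA (-0.67 ± 0.025). These were the largest decreases of the role, both over 1.5-fold. Nolc1, which encodes the snoRNP chaperone Nopp140, measured 212.0 and 203.7 CPM in Veh and 143.4 and 145.4 CPM in NRRA (-0.53 ± 0.032). Ddx21, a nucleolar RNA helicase gene, stood at -0.41 ± 0.027.

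The most abundant nucleolar transcripts were lower by smaller factors. Ncl, which encodes the RNA-binding protein nucleolin, measured 1140 and 1100 CPM in Veh and 857.9 and 856.3 CPM in NRRA (-0.39 ± 0.022). Npm1, which encodes the chaperone nucleophosmin, measured 679.6 and 690.1 CPM in Veh and 580.8 and 594.7 CPM in NRRA (-0.22 ± 0.023). Of the Npm1 transcript 53.8% had near-identical sequence in other genes, chiefly pseudogenes, which could take or give reads. Per kb of the exonic bases of all annotated transcripts, Npm1 was the highest of the 50 genes in both groups. Its mean was 257 CPM per kb in Veh and 220.5 CPM per kb in NRRA. Ncl was the next, at 109.9 and 84.1 CPM per kb. These bases can far exceed the length of an mRNA, as for Fbl, with 4209 exonic bases and a longest protein-coding transcript of 1197. Levels and ranks per kb, here and below, therefore compare different genes only roughly.

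The snoRNP proteins had the largest median decrease of the 5 roles, and all 8 were lower. Their median log2 fold change was -0.60, and their summed level was 956 and 952.2 CPM in Veh and 638.7 and 634.4 CPM in NRRA, a ratio of 0.667. Rrp9 (chr9:106475963-106485424), which encodes a protein of the U3 snoRNP that takes part in the first cuts of the precursor, measured 108.4 and 101.5 CPM in Veh and 45.47 and 44.38 CPM in NRRA. The log2 fold change was -1.22 ± 0.046 (n = 2 libraries a group, edgeR adjusted p = 7.25e-18), which left the NRRA level 57.2% lower. Of all genes tested 5.66% had a lower log2 fold change than Rrp9. In level per kb Rrp9 ranked 25 of the 50 genes in Veh and 37 in NRRA.

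The 3 proteins of box C/D snoRNPs among the 50 genes, which carry out ribose methylation, did not change by equal steps. Nop56 measured 170.4 and 173.0 CPM in Veh and 112.7 and 114.4 CPM in NRRA (-0.60 ± 0.033). Its partner Nop58 measured 206.8 and 193.2 CPM in Veh and 134.0 and 129.4 CPM in NRRA (-0.60 ± 0.035). For Fbl, the gene of the methyltransferase fibrillarin, the values were 176.1 and 191.9 CPM in Veh and 148.0 and 147.3 CPM in NRRA (-0.32 ± 0.036). The values of Nop56 and Nop58 were alike, and Fbl lay above them, with a 95% interval from -0.389 to -0.248 against -0.662 to -0.532 for Nop56. Snu13, the remaining core protein gene of these snoRNPs, counted here with the further assembly factors and named after its value was seen, was lower by a smaller step than any of the 3 (-0.12 ± 0.039, edgeR adjusted p = 0.00825), a call not made by DESeq2 (adjusted p = 0.0567). Of the Fbl transcript 83.3% had near-identical sequence elsewhere, chiefly in the pseudogene Gm5812, which had 270 to 389 counts in a library, and of the Nop56 transcript 39.2% did, chiefly in Gm9432, with 8 to 19 counts.

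The 4 box H/ACA proteins, which carry out pseudouridylation, had their enzyme as the least changed member. Nhp2 (chr11:51619735-51623714) measured 96.64 and 88.49 CPM in Veh and 52.17 and 55.01 CPM in NRRA (-0.79 ± 0.048, edgeR adjusted p = 2.00e-13). Nop10 measured 52.72 and 54.31 CPM in Veh and 32.64 and 34.45 CPM in NRRA (-0.68 ± 0.056). Gar1 measured 46.94 and 49.07 CPM in Veh and 33.5 and 31.89 CPM in NRRA (-0.55 ± 0.058). Dkc1, the X-linked gene of the pseudouridine synthase dyskerin, measured 98.0 and 100.7 CPM in Veh and 80.2 and 77.59 CPM in NRRA (-0.33 ± 0.040), and its 95% interval, from -0.411 to -0.253, did not overlap those of the other 3. In none of the 8 snoRNP genes did the groups overlap.

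In the annotation 29 snoRNAs lie within 8 of the 50 genes and on their strand, 11 in introns and 18 over exons of some transcript. The hosts were Taf1d with 8 snoRNAs, Nop56 with 5, Nop58 with 4, Ncl, Gnl3 and Wdr43 with 3 each, Tsr1 with 2 and Dkc1 with 1. Of these hosts 7 were lower, Taf1d being the exception, and their median log2 fold change was -0.53, beside -0.31 for the other 42 genes. The snoRNAs themselves are short and lack the poly(A) tail that these libraries select. The 18 over exons had 0 counts in every library, and those in introns had at most 12 counts in a library. The reason for this split was not tested.

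Of the 17 small subunit factors, 14 were lower, 1 was higher and 2 passed in neither direction, with a median log2 fold change of -0.33. Heatr1 (chr13:12395027-12440289), the homolog of yeast Utp10 in the t-UTP complex that also acts in Pol I transcription, measured 492.1 and 500.1 CPM in Veh and 307.5 and 305.4 CPM in NRRA. The log2 fold change of Heatr1 was -0.69 ± 0.025 (edgeR adjusted p = 2.94e-18), the lowest p of the 50 genes. The other t-UTP genes among the 50 were Wdr43 (-0.47), Utp4 (-0.41), Wdr75 (-0.33) and Utp15, which stood apart from these. Utp15 measured 72.6 and 74.48 CPM in Veh and 74.52 and 72.48 CPM in NRRA, and its groups overlapped, with a 95% interval of its log2 fold change from -0.0858 to 0.0843. The intervals of the other 4 lay wholly below that of Utp15.

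The 4 genes of the UTP-B complex among the 50 genes were all lower. Pwp2 stood at -0.51, Utp6 at -0.41, Utp18 at -0.26 and Tbl3 at -0.17. Pwp2 measured 73.63 and 72.63 CPM in Veh and 51.31 and 51.55 CPM in NRRA. The call of Tbl3 was lost with scaling by library size alone (-0.084, edgeR adjusted p = 0.0585). Tbl3 shared 37.3% of its exonic bases with Noxo1 on the opposite strand, and Noxo1 (90 to 161 counts in a library) was higher in NRRA, with a log2 fold change of 0.43. Whether reads were counted by strand is not given in the sources used here. The scaffold gene Utp20 stood at -0.21 and Nop14 at -0.18.

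The 4 late factors among the 50 genes, which bring the small subunit to its final form, were all lower, with a median log2 fold change of -0.53. Nob1, which encodes the endonuclease of the last cut of small subunit rRNA, measured 44.47 and 45.61 CPM in Veh and 28.77 and 29.76 CPM in NRRA (-0.62 ± 0.059, edgeR adjusted p = 1.07e-09). Tsr1, the gene of a late maturation factor whose window, printed above, held the E-box, the ETS core and the GC box, measured 185.0 and 194.3 CPM in Veh and 127.1 and 122.9 CPM in NRRA (-0.60 ± 0.034). It overlaps Srr on the opposite strand over 32.3% of its exonic bases, and Srr had a log2 fold change of -0.34. Bysl, the gene of bystin, stood at -0.47 and Rrp12, which acts in maturation and export, at -0.26.

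Of the 17 small subunit factors Nat10 was the 1 called higher. Nat10, which encodes the enzyme that acetylates cytidines of small subunit rRNA and of other RNAs, measured 89.59 and 84.09 CPM in Veh and 92.6 and 99.55 CPM in NRRA. The log2 fold change was 0.15 ± 0.044 (edgeR adjusted p = 0.00586). The gap between the groups was smaller than that between the libraries of a group, and the call was lost without Veh replicate 2 (edgeR adjusted p = 0.0731) or without NRRA replicate 2 (edgeR adjusted p = 0.153). Ddx10, an RNA helicase gene, measured 184.2 and 179.6 CPM in Veh and 188.2 and 189.7 CPM in NRRA, without overlap, but its log2 fold change of 0.055 did not pass (edgeR adjusted p = 0.132). In level per kb Ddx10 ranked 12 of the 50 genes in Veh and 4 in NRRA.

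Of the 8 large subunit factors, 6 were lower and 2 passed in neither direction, with a median log2 fold change of -0.38. Nop16 (chr13:54584185-54590090), the gene of a large subunit assembly factor, measured 67.4 and 66.68 CPM in Veh and 36.91 and 38.23 CPM in NRRA. Its log2 fold change was -0.84 ± 0.051 (edgeR adjusted p = 1.75e-13), the second lowest of the 50 genes. Of all genes tested 9.44% had a lower log2 fold change than Nop16. Nop2, which encodes a methyltransferase of large subunit rRNA, stood at -0.46 and the assembly factor gene Ebna1bp2 at -0.21.

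The PeBoW complex, which is needed for maturation of large subunit rRNA, was split. Bop1 measured 194.7 and 195.6 CPM in Veh and 130.4 and 132.0 CPM in NRRA (-0.57 ± 0.032). Wdr12 measured 46.09 and 47.32 CPM in Veh and 34.14 and 33.32 CPM in NRRA (-0.47 ± 0.057). Pes1, the gene of pescadillo, measured 138.4 and 131.7 CPM in Veh and 123.2 and 131.5 CPM in NRRA. Its groups were next to each other without overlap, and the log2 fold change of -0.085 ± 0.038 did not pass (edgeR adjusted p = 0.0584), though it passed without Veh replicate 2 (-0.12) or NRRA replicate 2 (-0.13) and with the replicate number as a block (-0.085, edgeR adjusted p = 0.0414). The 95% interval of Pes1, from -0.159 to -0.011, lay above that of Bop1, from -0.635 to -0.511. Of the Pes1 transcript 60.5% had near-identical sequence elsewhere, chiefly in the pseudogene Gm5910, which held at most 26 counts in a library.

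The paralogs Rrp1 and Rrp1b also differed. Rrp1 measured 157.5 and 166.7 CPM in Veh and 163.4 and 154.0 CPM in NRRA, with overlapping groups and a 95% interval of the log2 fold change from -0.100 to 0.0397. Rrp1b measured 112.2 and 118.2 CPM in Veh and 93.74 and 94.4 CPM in NRRA, with a log2 fold change of -0.29 ± 0.038 (edgeR adjusted p = 3.06e-07). The interval of Rrp1b, from -0.368 to -0.218, did not overlap that of its paralog.

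Other genes of the same pathway gave shares near those of the 50. Of 82 further assembly factors, all tested, 67 were lower, 3 were higher and 12 passed in neither direction, with a median log2 fold change of -0.24. They were 34 small subunit factors (28 lower, 1 higher) and 48 large subunit factors (39 lower, 2 higher). The lowest were Gnl3l (-0.87), a relative of Gnl3, and Rcl1 (-0.78), an rRNA processing factor, and Surf6 (-0.66), Riok2 (-0.64), Noc4l (-0.64) and Rrs1 (-0.57) followed. Against this direction, the helicase gene Ddx55 measured a mean of 21.1 CPM in Veh and 38.4 CPM in NRRA, with a log2 fold change of 0.87 ± 0.072 (edgeR adjusted p = 7.17e-11). Nol11 (0.19) and Rpf1 (0.18) were the other 2 that were higher, and Riok1 (0.13), Nop53 (0.083) and Nop9 (-0.051) passed in neither direction. DESeq2 called 62 of the 82 lower and 2 higher, and Rpf1 was among the calls it did not make (adjusted p = 0.102).

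**Figure D3:**
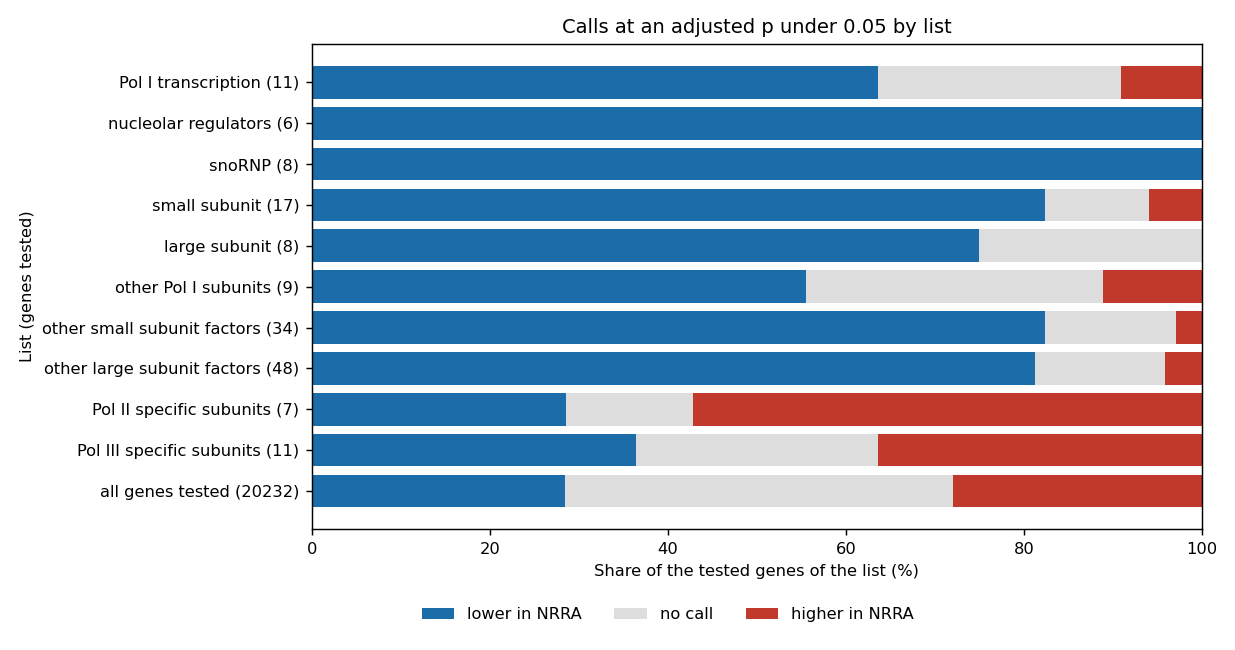
Share of the tested genes of each list called lower (blue), higher (red) or not called (grey) in NRRA by edgeR at an adjusted p under 0.05, with the number of genes tested in brackets. The lower share is 82.4% for the small subunit factors and 81.2% for the other large subunit factors, against 28.4% of all genes tested, and 28.6% and 36.4% for the subunits particular to Pol II and to Pol III.

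The subunit genes of the 3 nuclear RNA polymerases did not follow 1 direction. Beside the 5 core Pol I genes above, the Pol I subunit genes Polr1g (-0.41) and Polr1f (-0.22) were lower, and Polr1h (-0.057) passed in neither direction. The transcription termination factor gene Ttf1 (-0.076) did not pass either. Of the subunits that all 3 polymerases share, Polr2e (-0.34), Polr2h (-0.17) and Polr2f (-0.11) were lower, Polr2l (0.25) was higher and Polr2k (0.14) passed in neither direction. Of the 7 subunits particular to Pol II, which makes mRNA, 4 were higher and 2 lower. Polr2a, the gene of its largest subunit, rose from a mean of 662.1 to 964.4 CPM (0.54 ± 0.024), whereas Polr2i fell from 36.8 to 28.3 CPM (-0.38 ± 0.067). Of the 11 subunits particular to Pol III, which makes 5S rRNA and transfer RNA, 4 were higher, from 0.28 for Polr3g to 0.31 for Polr3e, and 4 were lower, down to -0.46 for Crcp. DESeq2 did not call Polr2h (adjusted p = 0.0903), Polr2f (0.149), Polr2g (0.0712) or Polr3k (0.188), and it made the other calls of this paragraph. The 95% interval of Polr1a, -0.356 to -0.232, lay below the log2 fold changes of Polr2a and of Polr3a (0.31 ± 0.034), the genes of the matching subunits of the other enzymes.

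**Figure D4:**
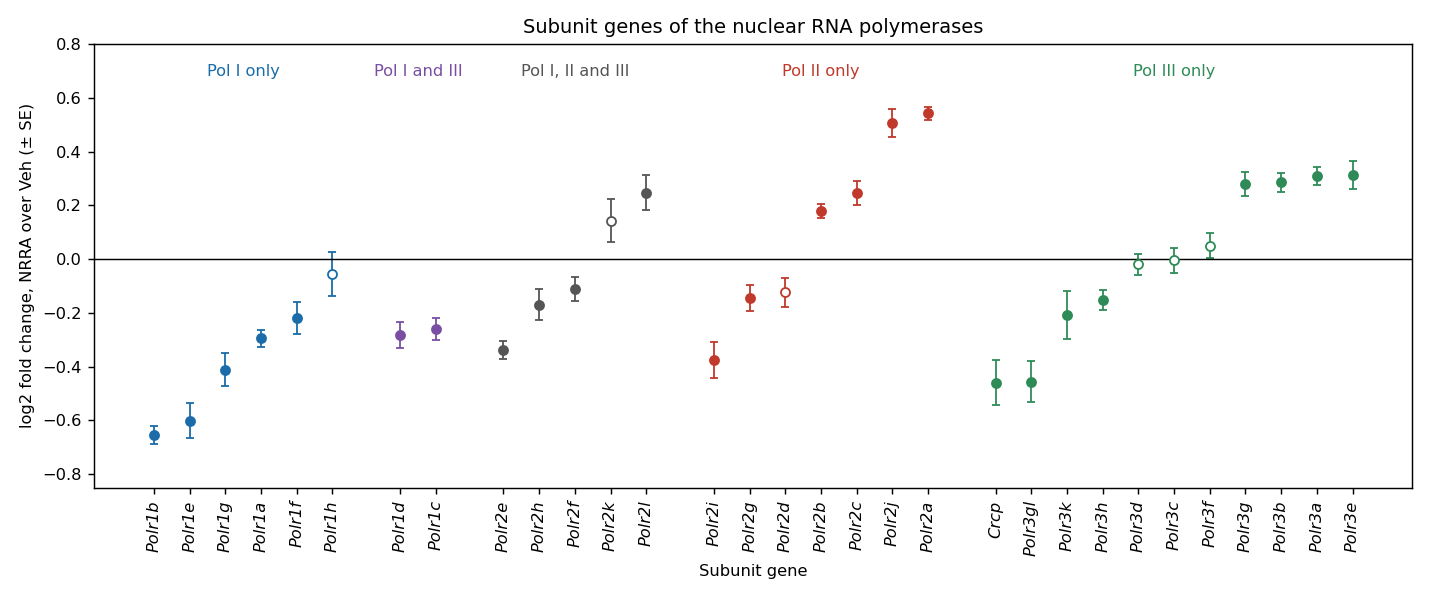
Log2 fold change (NRRA over Veh) with SE of the subunit genes of the 3 nuclear RNA polymerases, grouped by the enzyme they belong to, with filled circles for genes past the adjusted p threshold of 0.05. Among Pol I subunits Polr1b is lowest at -0.65, and the genes particular to Pol II run from -0.38 (Polr2i) to 0.54 (Polr2a) and those particular to Pol III from -0.46 (Crcp) to 0.31 (Polr3e).

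The MYC network, which is known to drive many of these genes in other cells, was measured as 11 genes. Mycn, a MYC family gene, measured a mean of 102.1 CPM in Veh and 13.6 CPM in NRRA, with a log2 fold change of -2.91 ± 0.057 (edgeR adjusted p = 4.95e-24). Myc was lower at -0.84 and the gene of their partner Max at -0.59. The MAX-binding repressor genes Mxd1 (1.18), Mxd4 (0.60) and Mxi1 (0.24) were higher, and Mycl, Mxd3, Mnt, Mga and Mlx passed in neither direction. The part of these genes in the change of the 50 was not tested.

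Sequence shared with other genes touched 9 of the 50 genes over more than 10% of their exonic or transcript bases. They were Fbl, Nop56, Npm1, Pes1, Taf1c, Taf1d, Tbl3, Tsr1 and Wdr12. Of these 6 were lower and none was higher, with a median log2 fold change of -0.22, and of the other 41 genes 35 were lower and 2 higher, with a median of -0.41.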

How the data were processed

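Poly(A) RNA of cultured CD1 spermatogonia was sequenced in 2 Veh and 2 NRRA libraries, and the authors deposited raw counts per gene. The submitters' processing notes name bcl2fastq, STAR 2.6.1c, featureCounts 1.6.4 and mm10. The annotation release, the strand setting and the treatment of multimapping reads are not given in the sources used here, and the labels name a TruSeq kit where the study's methods name a stranded Tecan kit. Columns were matched to samples by the descriptions, in which the Veh libraries carry the next higher number than in the titles, and 0 columns of per-sample values were left unused. The study used DESeq2, which was run here as an alternative (DESeq2 1.42.0).

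Counts were analysed with edgeR 4.0.16 and limma 3.58.1 in R 4.3.3, after a test on simulated data: filterByExpr, TMM, a robust quasi-likelihood fit of NRRA against Veh, and Benjamini-Hochberg adjustment over the 20232 genes tested, with a threshold of 0.05. The SE was derived from the F statistic. CPM is relative to the TMM-adjusted library size. Of 55421 gene identifiers 55240 (99.7%) were found in GENCODE M21 (GRCm38), which gave the coordinates. Shared sequence was counted from exon overlap and from BLAST 2.17.0 stretches of at least 100 bases and 95% identity. All 50 genes were named, as were the Pol subunits, the MYC network and the 3 lowest and 3 highest of the further assembly factors of each subunit. The genes, lists and motifs were chosen with earlier results of these data known. Alternatives were other normalizations, no filter on low counts, no robust estimation, a replicate block, DESeq2 and leaving out each library.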

Additional observations from a re-analysis of the deposited data

How the results depend on the processing

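Of 550 values for single genes, 11 alternatives for each of the 50, 523 had the sign and the call of the main test, 6 lost their call, 6 gained one and 15 turned direction, none of the latter in a gene called in the main test. The alternative with the largest effect on the medians was scaling by library size alone. It moved the median of all genes to 0.09 and the share of higher calls from 49.6% to 60.3%. With it the number of the 50 genes called higher was 4, and the medians were -0.27 for the 50, -0.17 for Pol I transcription, -0.38 for the nucleolar regulators, -0.51 for snoRNP, -0.24 for the small and -0.29 for the large subunit. Rrn3 (-0.025, adjusted p = 0.531) and Tbl3 (-0.084, adjusted p = 0.0585, both edgeR) then lost their calls, Ubtf (0.10) and Ddx10 (0.14) were called higher, and Utp15 (0.089), Pes1 (0.0047) and Rrp1 (0.059) turned to above 0. With upper quartile factors Ddx10 was called higher (0.075), Utp15 was at 0.019, and the medians were -0.34 for the 50, -0.58 for snoRNP and -0.31 for the small subunit. Utp15 was also above 0 without the filter (0.0067), with RLE size factors (0.00047) and in DESeq2 (0.00048), and DESeq2 called 41 of the 50 lower and 2 higher.

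Leaving out 1 library at a time assumes that the lone library varies like those of the other group. It left 40 to 42 of the 50 genes lower and 1 to 2 higher. The medians ran from -0.372 to -0.345 for the 50, from -0.249 to -0.190 for Pol I transcription, from -0.619 to -0.592 for snoRNP, from -0.349 to -0.317 for the small and from -0.384 to -0.353 for the large subunit. The direction turned without Veh replicate 2 or NRRA replicate 2 in Ubtf (range -0.025 to 0.045), Taf1d (-0.066 to 0.068), Utp15 (-0.021 to 0.019) and Rrp1 (-0.074 to 0.011). The cause of these changes was not tested. The replicate numbers share only a label, and same-numbered libraries deviated from their group means with a correlation of 0.0293 over 11326 genes. With the replicate block 42 of the 50 genes were lower and 2 higher, Pes1 being gained (-0.085, adjusted p = 0.0414), and 5836 and 5772 of all genes were called lower and higher.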
